A study of Homo sapiens with 12 samples.

Results

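Antisense RNA genes are described here in HAP1 cells, a near-haploid human line whose labels name chronic myelogenous leukemia, and in a HAP1 derivative in which SETDB1 was knocked out. The genes are those that GENCODE release 29 calls antisense, that lie on autosomes and that had a mean of at least 20 raw counts over the 6 non-directional gene tables. Of 5583 antisense genes in the annotation 5476 were autosomal, and 196 of these reached the minimum. After leaving out 8 genes in a segment of chromosome 1 and a segment of chromosome 9, and 1 gene by name, 187 genes remained, out of 58735 genes in the tables. Since the genes were chosen by their measured non-directional counts, their levels are a description. The 3 genes just inside the minimum were MZF1-AS1 with a mean of 20 counts, and BBOX1-AS1 and LHX1-DT with 20.2 each, while AC073254.1, AC112484.1 and NCK1-DT stood just outside with 19.8 each.

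The 12 libraries fell into 4 groups of 3 that the labels call biological replicates: wild-type HAP1 and SETDB1 knockout HAP1, each prepared from total RNA with a kit whose libraries lose the strand information (non-directional) and with one whose libraries hold it (directional). All cells were grown in the same medium, and whether the knockout derivative is 1 clone is not given in the sources used here. RNA was taken from whole cultures, so fewer cells that express a gene and less RNA per cell cannot be told apart.

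An antisense RNA gene is transcribed from the DNA strand opposite another gene, often from the same start region or into the other gene's body. Some such RNAs act on chromatin or on the RNA of the gene they face, and for many no function is known. SETDB1 trimethylates lysine 9 of histone H3. It is known for silencing retrotransposons, among them LINE-1 (L1) elements, together with the zinc finger proteins that guide it there. The 5′ end of an L1 element also carries a promoter that reads outward, on the strand opposite to the element.

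Of the 187 genes, 164 overlapped a protein-coding gene on the other strand, 2 overlapped another type of gene there and 15 started within 1 kb of a gene that reads away from them. These opposite-strand genes are called partners, and 6 antisense genes had none. Head-to-head overlaps, at the 5′ ends of both genes, were the most common arrangement (69 genes), followed by tail-to-tail overlaps (52), antisense genes within the span of the partner (28) and antisense genes that contain it (17). The median distance between the 2 starts was 603 bp in head-to-head pairs and 115 bp in the 15 diverging pairs. Exons that face exons of the other strand took up a median of 6.72% of the exonic length (range 0 to 84.1%). Without strand such stretches cannot be given to one gene, so non-directional counts rest on the rest of the exons.

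Promoter windows of 3 genes are shown because they belong to head-to-head pairs in which the antisense gene rose and the partner did not. Each runs from 250 bases before to 50 bases after the start that RefSeq gives on GRCh38.p14, on the strand of the antisense gene, and the capitals mark GGGCGG or its complement CCGCCC, the GC box known to bind Sp factors.
RAB11B-AS1: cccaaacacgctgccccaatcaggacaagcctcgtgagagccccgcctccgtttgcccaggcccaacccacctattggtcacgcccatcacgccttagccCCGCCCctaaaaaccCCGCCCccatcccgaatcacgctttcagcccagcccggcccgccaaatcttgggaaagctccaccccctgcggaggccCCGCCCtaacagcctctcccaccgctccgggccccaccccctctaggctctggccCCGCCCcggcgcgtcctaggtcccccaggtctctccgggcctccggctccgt
POT1-AS1: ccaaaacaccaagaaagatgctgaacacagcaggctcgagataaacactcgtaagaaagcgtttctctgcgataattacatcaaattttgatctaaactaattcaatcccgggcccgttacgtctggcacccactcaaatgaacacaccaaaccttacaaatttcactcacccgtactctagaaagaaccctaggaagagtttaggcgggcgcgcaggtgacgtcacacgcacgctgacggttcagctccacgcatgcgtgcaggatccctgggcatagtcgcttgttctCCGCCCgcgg
NNT-AS1: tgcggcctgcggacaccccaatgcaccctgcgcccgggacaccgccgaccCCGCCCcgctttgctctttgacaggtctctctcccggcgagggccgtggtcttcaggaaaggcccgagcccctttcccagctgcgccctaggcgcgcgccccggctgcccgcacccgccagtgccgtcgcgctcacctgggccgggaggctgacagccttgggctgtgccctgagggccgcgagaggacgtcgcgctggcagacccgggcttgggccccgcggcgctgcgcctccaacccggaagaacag
The windows lie at chr19:8390642-8390941 on the minus strand, chr7:124929623-124929922 on the plus strand and chr5:43603181-43603480 on the minus strand. The GENCODE starts of the antisense gene and its partner were 704 bp apart for RAB11B-AS1, 110 bp for POT1-AS1 and 538 bp for NNT-AS1. RefSeq windows were matched by symbol for 75 of the 187 genes. A GC box was present in 63 of their 90 windows (70%) and in 45.0% of all 35116 windows, and the median number of CG dinucleotides was 27 and 14. RAB11B-AS1 held 4 boxes, and POT1-AS1 and NNT-AS1 held 1 each.

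Non-directional libraries held 8921959 to 10199215 gene counts and directional libraries 532021 to 676691, so that 3 counts corresponded to 0.294 to 0.336 CPM and 4.43 to 5.64 CPM. CPM is the usual unit of counts scaled by the total of the library. In the non-directional libraries SETDB1 itself had 651, 543 and 519 counts in the wild type against 118, 106 and 118 in the knockout, a log2 fold change of -2.39 (SE 0.08, adjusted p = 7.02e-43, edgeR). The 3 knockout libraries of the non-directional kit differed by less than sampling noise over all genes (chi-square per degree of freedom 0.956 to 0.991), while wild-type replicate 2 differed from the other wild-type libraries (1.82 and 2.00). The labels call them biological replicates and they were kept as 3, but counts that differ by no more than counting noise do not show 3 separate cultures, and the p-values may then measure technical spread in this group. Summed as 1 sample, with all spread taken from the wild type and the lone sample assumed to vary like it, they left 50 of the 57 calls given below. Of 10 haematopoietic markers fixed for a check of the labelled cell type, 9 had at most 3 counts in every non-directional library, PTPRC, SPI1 and MPO among them, and the list summed to 0.319 to 0.686 CPM in the wild type against 0.295 to 0.512 CPM in the knockout. The 4 epithelial genes (EPCAM, CDH1, KRT8 and KRT18) summed to 141 to 155 CPM in the wild type against 205 to 217 CPM in the knockout. The sum was carried by KRT8 and EPCAM, which were called higher, while KRT18 was not called (-0.10) and CDH1 had 8, 12 and 11 counts against 3, 8 and 1, and their part in the results below was not tested.

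In the non-directional libraries 57 of the 187 antisense genes passed the test between knockout and wild type (edgeR quasi-likelihood test, adjusted p under 0.05 over all 13778 genes tested). Of these 37 were higher and 20 lower in the knockout. This is 30.5% of the antisense genes, against 51.5% of all genes tested (25.5% higher and 25.9% lower). A difference of at least 1 on the log2 scale was seen in 17 antisense genes (9.09%), 14 of them higher, against 7.8% of all genes tested. The median log2 fold change was 0.03 over the antisense genes and -0.00 over all genes, and the median size of a change regardless of sign was 0.21 and 0.19. Antisense genes had few counts (median of the mean count 39.2), and the median standard error of their log2 fold change was 0.19 against 0.08 for all genes. Among genes whose mean count lay in the middle range of the antisense genes, 28.0% of 93 antisense genes and 46.2% of 1640 genes passed. The minimum itself favours genes that are high in 1 genotype. In 19 genes the wild-type mean was under 20 and 13 of these were called higher, and in 7 genes the knockout mean was under 20 and 4 of these were called lower. Among the 161 genes with a mean of at least 20 in each genotype, 40 were called, 24 higher and 16 lower.

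The antisense genes that rose most were ZNF790-AS1, GAS6-AS1, HOTAIR, RAB11B-AS1, AC012645.1 and KCNMB2-AS1. ZNF790-AS1 (chr19:36797518-36828115, plus strand) faces the KRAB zinc finger gene ZNF790 tail to tail and had 1, 0 and 1 counts in the wild type against 54, 54 and 64 in the knockout. With only 2 wild-type counts, its fitted log2 fold change of 6.12 (SE 0.42, adjusted p = 1.85e-22) depends on the prior count, and the ratio of summed CPM was 82.5 with an exact 95% interval of 22.5 to 687 from counting error alone. GAS6-AS1 (chr13:113815630-113845744, plus strand), opposite the gene for a ligand of the TYRO3, AXL and MERTK receptors, went from 4, 3 and 1 counts to 79, 89 and 89, a log2 fold change of 4.88 (SE 0.29, adjusted p = 4.79e-26). HOTAIR (chr12:53962308-53974956, minus strand) is an RNA of the HOXC cluster studied for its ties to the Polycomb machinery. It had 6, 5 and 4 counts in the wild type against 58, 72 and 57 in the knockout (log2 fold change 3.54, SE 0.28, adjusted p = 1.87e-19). In none of these genes did the libraries of the 2 genotypes overlap, and mean wild-type levels were 0.0682, 0.278 and 0.525 CPM, near the CPM of 3 counts.

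RAB11B-AS1 (chr19:8374373-8390685, minus strand), opposite the gene of a small GTPase of recycling endosomes, had 5, 8 and 4 counts in the wild type against 47, 49 and 48 in the knockout. Its log2 fold change was 2.99 (SE 0.29, adjusted p = 2.9e-15). AC012645.1 (chr16:30096430-30104116, plus strand), head to head with YPEL3, went from 8, 6 and 8 counts to 60, 54 and 68, a log2 fold change of 2.96 (SE 0.25, adjusted p = 1.53e-17). KCNMB2-AS1 (chr3:178526505-178860405, minus strand) runs through the region of KCNMB2, which encodes a beta subunit of large-conductance potassium channels and had at most 3 counts in any library. The antisense gene had 4, 6 and 10 counts in the wild type against 30, 35 and 42 in the knockout (log2 fold change 2.33, SE 0.30, adjusted p = 2.91e-10), again without overlap.

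**Figure D1:**
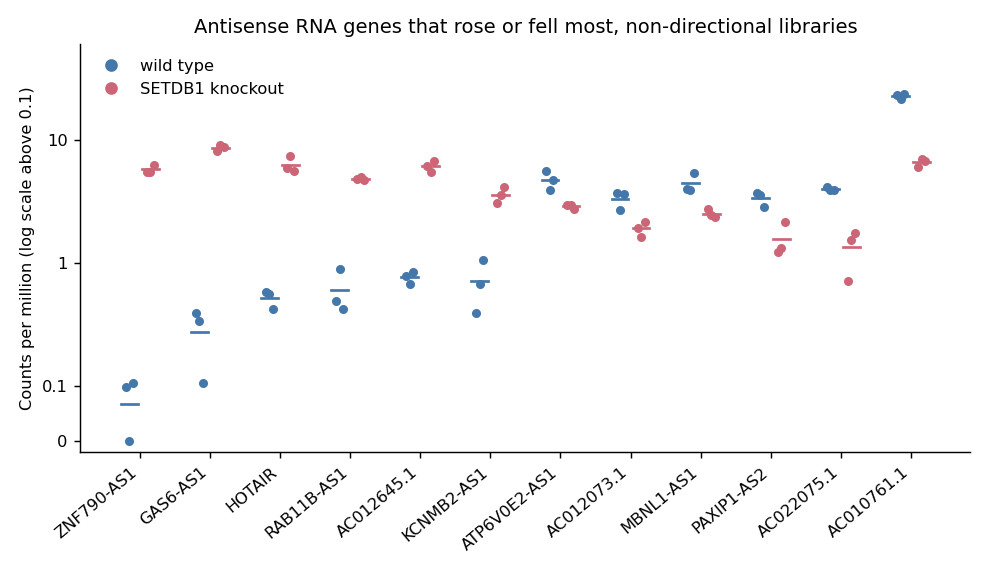
Level in CPM (log scale above 0.1, linear below) of the 6 strongest risers and the 6 strongest fallers among the antisense genes, in each of the 3 wild-type and 3 SETDB1 knockout non-directional libraries. Points are libraries and bars are group means. For all 12 genes, which were chosen so, the 2 genotypes do not overlap. The mean wild-type level was at most 0.769 CPM in the genes that rose and 3.34 to 22.7 CPM in the genes that fell, a contrast that the minimum of 20 counts over both genotypes favours by itself.

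The falls were smaller than the rises. AC010761.1 (chr17:28721487-28722877, minus strand) lies within the span of RPL23A, the gene of a protein of the large ribosomal subunit. It fell from 236, 191 and 222 counts to 59, 69 and 68 (log2 fold change -1.79, SE 0.11, adjusted p = 2.1e-25). AC022075.1 (chr12:10363769-10398506, plus strand) runs opposite natural killer receptor genes, and its partner KLRC4-KLRK1 had 0 counts in all 6 libraries. Reads ambiguous between genes were not counted, so this does not show that the other strand was silent. AC022075.1 had 42, 35 and 37 counts in the wild type against 7, 15 and 18 in the knockout, a log2 fold change of -1.57 (SE 0.25, adjusted p = 1.23e-07). PAXIP1-AS2, tail to tail with the gene of a BRCT-domain protein of histone methyltransferase complexes, went from 38, 32 and 27 counts to 12, 13 and 22 (log2 fold change -1.11, SE 0.25, adjusted p = 0.000117). The other 3 lay within 1 on the log2 scale. MBNL1-AS1 changed by -0.82 (SE 0.21, adjusted p = 0.000524), AC012073.1 by -0.82 (SE 0.24, adjusted p = 0.00261) and ATP6V0E2-AS1 by -0.73 (SE 0.20, adjusted p = 0.00127). In all 6 every knockout library lay below every wild-type library. Over all antisense genes the libraries did not overlap in 44 that were higher and 24 that were lower in the knockout, 23.5% and 12.8%, against 29.1% and 27% of all genes tested.

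Per kb of exon the highest levels, averaged over the 6 non-directional libraries, belonged to AC099850.3 (41.9 CPM per kb), SNHG7 (26.1), AC006329.1 (23.1), AL513165.1 (22.3) and FGD5-AS1 (21.8), against a median of 1.72 over the 187 genes. Of these 5, 3 were called. SNHG7, a host gene of small nucleolar RNAs, had 1119, 1003 and 994 counts in the wild type against at least 1151 in each knockout library, a log2 fold change of 0.10 (SE 0.04, adjusted p = 0.0429) that lost its call in 9 of 12 alternative settings. FGD5-AS1 had 1225, 989 and 1125 counts against 1052, 1053 and 1059 (log2 fold change -0.14, SE 0.04, adjusted p = 0.00238). AC006329.1, which has no partner, had the largest change of the 5, from 130, 80 and 118 counts to 201, 211 and 215 (log2 fold change 0.87, SE 0.10, adjusted p = 9.28e-12). AC099850.3 and AL513165.1 did not pass (log2 fold changes 0.22 and 0.28, adjusted p = 0.0785 and 0.114). Per kb of exon, 120 of 181 antisense genes were below their partner and 61 were above it.

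A list of 40 antisense RNAs with a literature of their own was also read, and 16 of them were among the 187 genes. The list is not complete and does not hold HOTAIR, which was called higher at 3.54 as given above. Of the 16, 3 were called higher, 2 lower and 11 not called, where 51.5% of all genes tested were called. Among these 16 NNT-AS1 had the largest change, from 301, 233 and 303 counts to 741, 690 and 741, a log2 fold change of 1.31 (SE 0.06, adjusted p = 1.71e-32). HAGLR, an RNA of the HOXD cluster, had 45, 19 and 22 counts in the wild type against 38, 51 and 60 in the knockout (log2 fold change 0.72, SE 0.21, adjusted p = 0.00217). The first wild-type library lies inside the range of the knockout, and without it the value was 1.14. LOXL1-AS1 was lower (log2 fold change -0.52, SE 0.18, adjusted p = 0.0108), a call lost in 4 of 12 settings. ZFAS1 was called higher at a log2 fold change of 0.20 (SE 0.08, adjusted p = 0.0389), a call lost in 8 of 12 settings, and FGD5-AS1 was lower as given above. MCM3AP-AS1 (-0.29, adjusted p = 0.0546) and SLC25A25-AS1 (-0.18, adjusted p = 0.257) did not pass.

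The change of each antisense gene was then set beside that of its partner. Both were tested in 154 pairs, and 68 of the partners were called (44.2%, beside the 51.5% of all genes), 37 higher and 31 lower. In 27 pairs both genes were called. In 21 of these they moved in the same direction, 15 up and 6 down, and in 6 they moved in opposite directions, 5 with the antisense gene higher and 1 with it lower. The share in the same direction was 77.8%, beside 72.1% of the 484 pairs with both genes called among all 2108 opposite-strand pairs tested, so it was near the background. In 19 pairs the antisense gene alone passed, in 41 the partner alone and in 67 neither. Across the 154 pairs Spearman's rho between the 2 log2 fold changes was 0.26 and Pearson's r was 0.41. This is a description over genes, which share libraries and in part exons.

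Whether the 2 genes of a pair changed by different amounts was tested in 1 fit with a term for gene by genotype, over all 2108 opposite-strand pairs with both genes tested. The non-directional libraries hold no strand, so the test compared counts of 2 gene models and not of 2 strands. RNA of the partner's strand from stretches that only exons of the antisense gene cover would count for the antisense gene. The difference passed in 38 of 154 pairs (24.7%), 25 with the antisense gene above the partner and 13 below, against 36.8% of all pairs (19.4% and 17.4%, where the order of the 2 genes is arbitrary outside the antisense genes studied). It passed in 6 of the 21 pairs that moved together, in all 6 that moved apart, in 13 of 19 in which the antisense gene alone was called, in 10 of 41 in which the partner alone was called and in 3 of 67 in which neither was. For most pairs the counts thus gave no difference beyond replicate error, and the median size of the difference, 0.24 on the log2 scale, was 0.24 over all pairs too.

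The largest differences among pairs that moved apart were those of ZNF790-AS1, RAB11B-AS1, NNT-AS1 and AP002387.1. ZNF790 had 88, 75 and 67 counts in the wild type against 69, 63 and 59 in the knockout (log2 fold change -0.34, adjusted p = 0.0426). The difference between the genes was thus 6.45 (SE 0.46, adjusted p = 2.23e-41). RAB11B fell from 699, 670 and 612 counts to 524, 519 and 509 (log2 fold change -0.42, adjusted p = 2.86e-10), a difference of 3.41 (SE 0.29, adjusted p = 1.53e-30). NNT, which encodes the proton-pumping transhydrogenase of mitochondria, changed by -0.28 (adjusted p = 9.98e-12) while its antisense gene rose, a difference of 1.59 (SE 0.07, adjusted p = 6.74e-122). DHCR7, the enzyme of the last step of cholesterol synthesis, changed by -0.27 (adjusted p = 4.11e-11) and AP002387.1, which lies within its span, by 0.42 (adjusted p = 0.00034), from 120, 119 and 112 counts to 167, 163 and 162. RAB11B-AS1 and NNT-AS1 start within 1 kb of their partners. The opposite signs in all 4 pairs follow from the way the pairs were chosen.

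The largest summed changes of pairs that moved together were those of HOTAIR, GAS6-AS1, AC012645.1 and AC011447.3. HOXC11, a homeobox gene head to head with HOTAIR, rose from 15, 13 and 28 counts to 323, 337 and 328 (log2 fold change 4.06, SE 0.14, adjusted p = 5.99e-42). The changes of HOTAIR and HOXC11 did not differ beyond error (difference -0.52, SE 0.48, adjusted p = 0.422). GAS6 rose less than its antisense gene, from 49, 43 and 41 counts to 169, 161 and 152 (log2 fold change 1.79, SE 0.13), and the difference of 3.09 (SE 0.40) passed at adjusted p = 4.27e-13. YPEL3 rose by 0.89 (SE 0.16), again less than the antisense gene (difference 2.07, SE 0.32, adjusted p = 3.12e-09). AC011447.3 spans the KRAB zinc finger gene ZNF486 on chromosome 19, and it went from 45, 37 and 31 counts to 113, 104 and 116, with ZNF486 going from 296, 228 and 279 to 882, 866 and 944. Their log2 fold changes of 1.49 and 1.68 did not differ beyond error (difference -0.19, SE 0.17, adjusted p = 0.422).

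**Figure D2:**
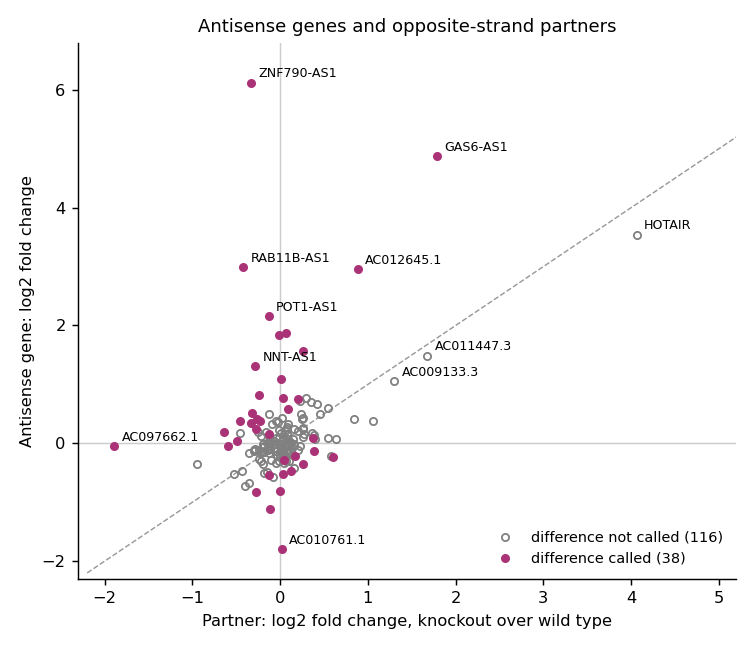
Log2 fold change, knockout over wild type in the non-directional libraries, of each antisense gene (vertical axis) against that of its opposite-strand partner (horizontal axis) for the 154 pairs in which both were tested. Each point is 1 pair and the dashed line marks equal change. Filled points are the 38 pairs whose difference between the genes passed the test. ZNF790-AS1, RAB11B-AS1 and POT1-AS1 lie far above the line near 0 on the horizontal axis, and HOTAIR lies close to the line.

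Several antisense genes changed beside a partner that was not called, and all of those given here were picked after their values were seen, except POT1-AS1 and AC007128.1. POT1-AS1 (chr7:124929873-125179315, plus strand) went from 8, 5 and 10 counts to 39, 33 and 37 (log2 fold change 2.16, SE 0.29, adjusted p = 5.71e-10). POT1, whose protein binds the single-stranded end of telomeres, had 336, 259 and 282 counts against 278, 292 and 268 (-0.13, adjusted p = 0.128), and the difference was 2.29 (SE 0.30, adjusted p = 8.17e-13). AC007128.1 rose by 1.88 (SE 0.28, adjusted p = 2.13e-08) beside ICA1 at 0.07 (adjusted p = 0.812). BOLA3-AS1 starts 15 bp from BOLA3, a gene of iron-sulfur protein assembly. It went from 85, 63 and 60 counts to 159, 140 and 167 while BOLA3 had 532, 456 and 537 against 515, 544 and 555 (difference 1.08, SE 0.13, adjusted p = 1.32e-15). The reverse was seen at COL4A3, the gene of a type IV collagen chain, which fell from 24, 18 and 12 counts to 5, 4 and 6 beside AC097662.1, with 30, 27 and 25 counts against 27, 27 and 29 (difference 1.84, SE 0.43, adjusted p = 0.000202).

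By arrangement, 20 of 69 head-to-head genes were called (12 higher, 8 lower), 17 of 52 tail-to-tail genes (12 and 5), 13 of 28 genes within the partner (8 and 5), 2 of 17 that contain it (1 and 1), 3 of 15 diverging genes (3 and 0) and 2 of 6 without a partner (1 and 1). The median log2 fold change lay between -0.01 and 0.19 in every arrangement, and differences between arrangements were not tested. These counts stand beside 30.5% called over all 187 antisense genes and 51.5% over all genes. Zinc finger partners were taken by symbol (starting with ZNF, ZFP, ZSCAN, ZKSCAN or ZBTB), so zinc finger genes with other symbols were not counted as such. Among 9 antisense genes with such a partner, 3 were higher (ZNF790-AS1, AC011447.3 and AC021092.1) and 1 was lower (ZNF436-AS1, log2 fold change -0.48, adjusted p = 0.0301, with ZNF436 itself at -0.43), where 51.5% of all genes were called. The call of ZNF436-AS1 was lost in 6 of 12 settings. Among the 4 that face a HOX gene, HOTAIR and HAGLR were higher. HOTAIRM1 (0.09, adjusted p = 0.789) and HOXA11-AS (0.10, adjusted p = 0.718) were not called.

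The directional libraries gave another reading of the same loci. Only 5.23 to 5.30% of the listed reads fell in genes in these tables, against 80.3 to 80.4% in the non-directional ones. The 8 abundant genes fixed for this check (ACTB, EEF1A1, TUBA1B, HSPA8, ENO1, LDHA, PGK1 and RPLP0) had 454 to 4518 CPM in the non-directional wild type and 29.2 to 149 CPM in the directional wild type. The 187 antisense genes went the other way. They took 0.141 to 0.158% of gene counts in the non-directional libraries and 3.18 to 3.30% in the directional ones. In the wild type 3.15 of these percentage points belonged to the 143 genes whose exons face exons of the other strand, and 0.0413 to the 44 whose exons do not. A large part of this share came from few rows. AC009133.1 had 4794, 5284 and 4046 directional counts in the wild type, a mean of 7742 CPM. AC010761.1, inside RPL23A, had 4204, 4864 and 3876, a mean of 7108 CPM. The strand setting of the counter is not given in the sources used here. Over 143 antisense genes the directional level of the row had a Spearman's rho of 0.31 with the non-directional level of the partner. With the non-directional level of the gene itself the rho was 0.05. Which strand the counts of each single row come from was not tested. A directional value is therefore given as that of a row, beside the non-directional values of both genes.

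**Figure D3:**
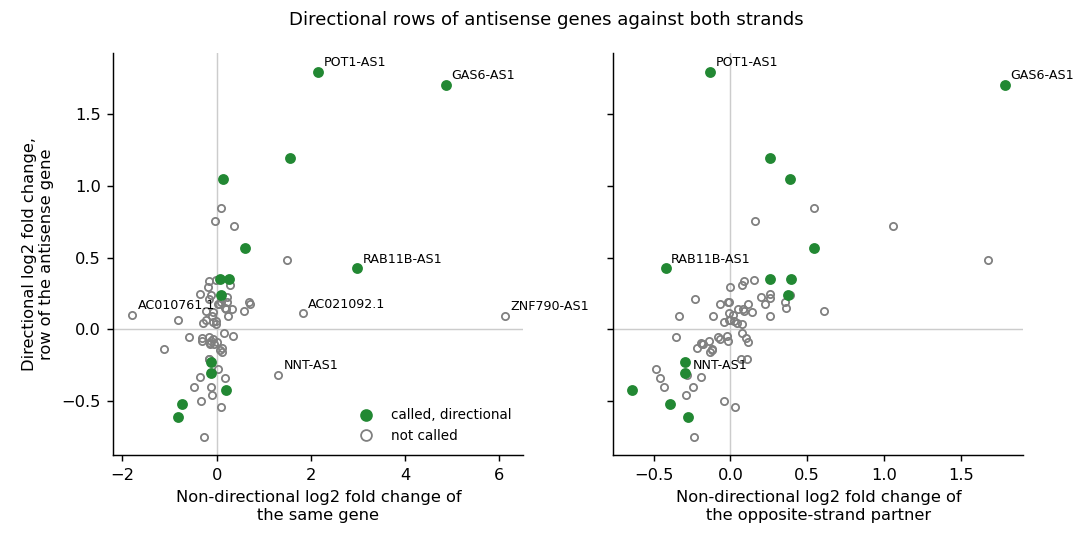
Log2 fold change, knockout over wild type, in the directional row of an antisense gene (vertical axes) against the non-directional log2 fold change of the same gene (left) and of its opposite-strand partner (right), for the 78 antisense genes with all 3 values. Each point is 1 gene, filled where the directional change was called. ZNF790-AS1 at 6.12, NNT-AS1 and AC010761.1 lie near 0 or on the other side of it on the left vertical axis, while on the right most points lie in the lower left and the upper right.

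In the directional libraries the rows of 86 antisense genes were tested and 15 were called, 10 higher and 5 lower. This is 17.4%, against 16.2% of all 4745 genes tested, of which 7.67% were higher and 8.54% lower. Over the 78 genes with all values, the directional change in the row of the antisense gene had a Spearman's rho of 0.70 with the non-directional change of the partner (Pearson's r 0.62) and of 0.47 with that of the gene itself (0.47). Over 80 pairs the directional change in the row of the partner had a rho of 0.38 with the non-directional change of the antisense gene (0.65) and of 0.24 with that of the partner (0.57). These are descriptions across genes from different libraries of the same 2 cell populations. Of 14 called genes with a partner tested in the other kit, 12 had the sign of the partner's non-directional change and 13 their own.

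In some pairs the directional row of the antisense gene was close to the partner. That of NNT-AS1 had 65, 86 and 73 counts in the wild type against 58, 58 and 57 in the knockout, a log2 fold change of -0.31 (SE 0.15, adjusted p = 0.146) close to the -0.28 of NNT and far from its own 1.31. The row of AC010761.1 changed by 0.10 (SE 0.04, adjusted p = 0.0517), as RPL23A did in the other kit (0.02), and not by -1.79. At the GAS6 locus both rows rose in both kits, with the larger change in the row of GAS6-AS1 without strand (4.88 against 1.79) and in the row of GAS6 with strand (4.06 against 1.70). GAS6 there had 1, 2 and 1 counts in the wild type against 23, 30 and 17 in the knockout, at the lower limit of these libraries. The difference between the rows was 3.09 (adjusted p = 4.27e-13) in the one kit and -2.36 (SE 0.61, adjusted p = 0.00981) in the other.

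In all, 12 partner rows were called in the directional tables, 10 of them higher, out of 89 tested (13.5%, beside the 16.2% of all genes). In 11 of the 12 the sign was that of the antisense gene in the non-directional libraries, and in 7 of the 11 that could be compared it was that of the partner itself. AC021092.1 lies opposite ZNF224, a KRAB zinc finger gene, and 84.1% of its exonic length faces exons of the other strand. Exons of ZNF224 cover 2875 of its 3488 exonic bases. AC021092.1 had 21, 7 and 5 non-directional counts in the wild type against 41, 41 and 42 in the knockout (log2 fold change 1.83, SE 0.27, adjusted p = 1.16e-08). ZNF224 had 45, 36 and 45 against 44, 37 and 50 (-0.01). In the directional tables it was the row of ZNF224 that rose, from 107, 106 and 89 counts to 309, 295 and 274 (log2 fold change 1.60, SE 0.09, adjusted p = 1.6e-27). The row of AC021092.1 had 61, 69 and 74 against 69, 79 and 64 (0.11, adjusted p = 0.682).

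AC025569.1 had 199, 155 and 173 non-directional counts in the wild type against 232, 271 and 282 in the knockout (log2 fold change 0.51, SE 0.08, adjusted p = 3.51e-07), but 2, 7 and 4 against 5, 2 and 2 in its directional row. The directional row of its partner PTPRB, a receptor-type tyrosine phosphatase, held 158, 136 and 112 against 201, 182 and 159 (0.47, SE 0.10, adjusted p = 0.000193), although PTPRB had a non-directional change of -0.32 (adjusted p = 0.169). AC009133.3 and its partner C16orf54 both rose without strand, by 1.06 and 1.30, and in the directional tables the row of C16orf54 rose by 1.17 (adjusted p = 1.07e-06) while that of AC009133.3 held 0 or 1 counts. VPS9D1-AS1 and VPS9D1 rose by 0.67 and 0.41 without strand, and the directional row of VPS9D1 rose by 0.34 (adjusted p = 0.00195). MBNL1-AS1 had -0.82, and the row of MBNL1, a splicing regulator, fell from 49, 50 and 35 counts to 21, 20 and 23 (adjusted p = 0.000113). The directional row of MBNL1-AS1 was called lower as well. MCM3AP-AS1 had -0.29 and the row of MCM3AP, a gene of messenger RNA export, -0.53 (adjusted p = 0.0112). The directional row of RPAIN had the sign of neither gene and rose by 0.35 (adjusted p = 0.00991, edgeR). Without strand RPAIN changed by -0.36 and its antisense gene AC004148.2, which was not called, by -0.16.

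**Figure D4:**
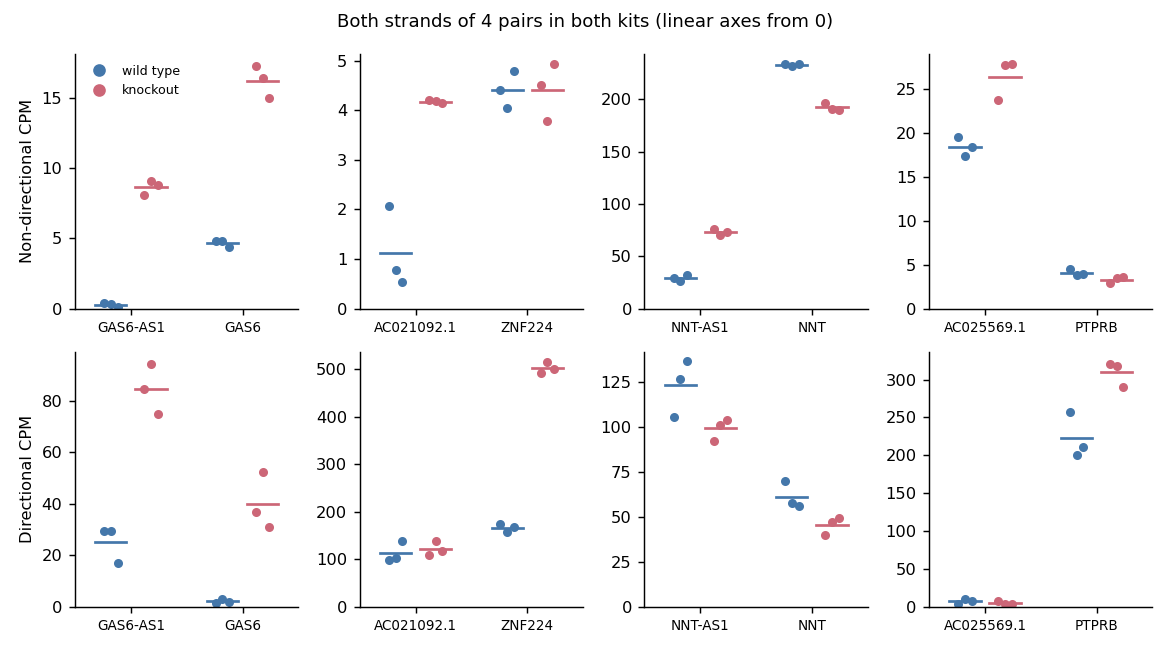
CPM of the antisense gene and its partner in 4 pairs, in the non-directional (upper row) and directional (lower row) libraries. Points are the 3 wild-type and 3 knockout libraries, bars are group means, and all axes are linear from 0. For AC021092.1 with ZNF224 and for AC025569.1 with PTPRB the rise stands in the row of the antisense gene without strand and in the row of the partner with strand.

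The rows of 8 antisense genes were called in both kits, all in the same direction, which does not show that both rows count the same RNA. The share of all genes called in both kits was not counted, so these 8 stand without a background. GAS6-AS1, RAB11B-AS1, POT1-AS1, KIF9-AS1, MBNL1-AS1 and ATP6V0E2-AS1 had the smallest non-directional p-values among them. For POT1-AS1 and KIF9-AS1 the directional row lay closer to the antisense gene than to the partner. POT1-AS1 had 9, 11 and 4 directional counts in the wild type against 25, 25 and 31 in the knockout (log2 fold change 1.80, SE 0.31, adjusted p = 2.52e-06), with 0 to 2 counts in the row of POT1, beside non-directional changes of 2.16 for POT1-AS1 and -0.13 for POT1. KIF9-AS1, opposite a kinesin gene, had 9, 8 and 6 against 17, 15 and 19 (1.19, SE 0.35, adjusted p = 0.00918), beside 1.57 (SE 0.24) for KIF9-AS1 and 0.26 for KIF9 in the other kit. ATP6V0E2-AS1, opposite a gene of the vacuolar proton pump, had -0.52 (SE 0.09, adjusted p = 3.54e-06), beside -0.73 for itself and -0.40 for ATP6V0E2 without strand. RAB11B-AS1 had 0.43 (SE 0.12, adjusted p = 0.00814), beside 2.99 for RAB11B-AS1 and -0.42 for RAB11B without strand, so the row had the sign of the antisense gene and a much smaller change. The difference between the rows was tested in 52 pairs of the directional tables and passed in 4 (7.69%), 1 with the row of the antisense gene above and 3 with it below, against 5.11% of all 1155 pairs (2.51% higher and 2.6% lower, in arbitrary order of the 2 genes). A difference between the kits passed in the rows of 9 of 185 antisense genes (4.86%), against 1.82% of all 15832 genes (1.17% with the directional change above and 0.651% below). On simulated counts this test recovered 8% of 2-fold and 38.8% of 4-fold differences. An absent call thus does not show that the kits agree.

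Long L1 elements gave a further reading. The L1 tables give a signal for 6437 loci in the non-directional libraries, and 11 loci lay within 10 of the antisense genes. Of these loci 4 passed the filter on low values and 2 were called, both higher in the knockout (limma on log2 of the value plus 1), against 28.4% of all 816 loci tested (19.1% higher and 9.31% lower). An L1PA2 locus at chr3:178859949-178865979, as the tables give it, holds the start of KCNMB2-AS1, 456 bp from its lower end. Its recovered reads were 10, 10 and 17 in the wild type against 35, 38 and 32 in the knockout (log2 fold change 1.07, SE 0.29, adjusted p = 0.00854, limma). The deposited signal is scaled unlike the gene counts, with 1 read worth 1.04 to 1.22 in the wild type and 0.835 to 0.856 in the knockout. With the depth of the gene counts, edgeR on the recovered reads gave 1.42 (adjusted p = 0.000413), beside 2.33 for the gene. An L1PA3 locus at chr7:8298114-8304140 within AC007128.1 had 6, 6 and 12 reads against 30, 36 and 45 (1.73, SE 0.33, adjusted p = 0.000715, limma). By edgeR in the same way its value was 2.12 (adjusted p = 1e-05), beside 1.88 for the gene. The lincRNA gene AC007128.2, which overlaps AC007128.1 on the same strand so that their reads cannot be fully told apart, starts in this locus and had 0, 3 and 2 counts against 5, 12 and 8.

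The other gene that starts inside a long L1 locus was BBOX1-AS1 (chr11:27047186-27220113, minus strand), opposite the gene of the last enzyme of carnitine synthesis. The L1PA2 locus at chr11:27219704-27225730 had 22, 18 and 24 reads in the wild type against 36, 45 and 33 in the knockout. It was not called by limma (0.40, SE 0.24, adjusted p = 0.235) and was called by edgeR on the recovered reads with the depth of the gene tables (0.76, adjusted p = 0.0221). BBOX1-AS1 had 14, 15 and 21 counts against 20, 31 and 20 (log2 fold change 0.44, SE 0.27, adjusted p = 0.174). A stretch of 67 bases near the start of transcripts of KCNMB2-AS1 and BBOX1-AS1 was also found in LINC00649. LINC00649 was lower in the knockout (log2 fold change -0.48, SE 0.15, adjusted p = 0.00509, edgeR). A 40-base core of this stretch lay in the first 200 bases of transcripts of 27 genes. Of these 12 were tested, with 4 higher and 4 lower, against 25.5% and 25.9% of all genes tested. Whether the reads of a gene and of the L1 locus at its start are the same reads cannot be told from the tables.

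**Figure D5:**
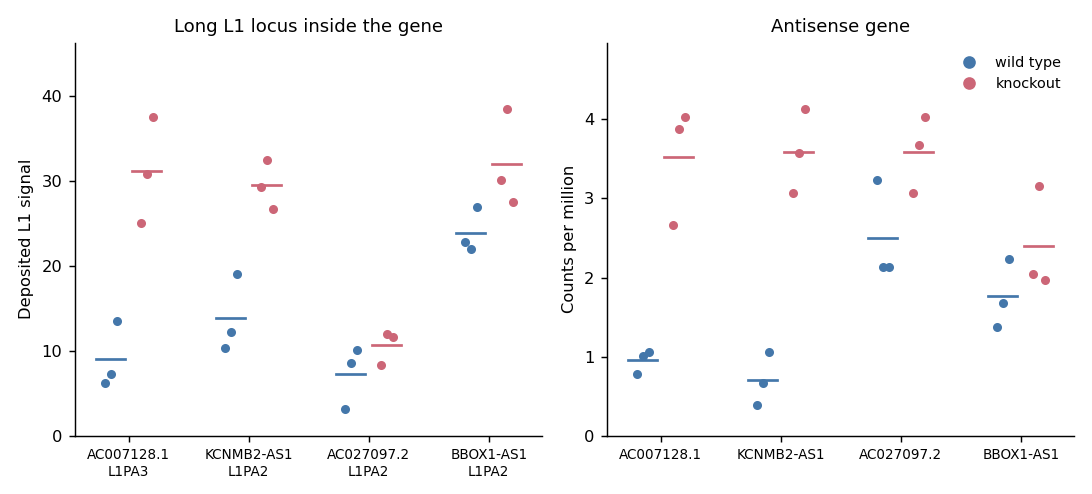
Left, deposited L1 signal (whole reads times 1 factor per library) of the 4 tested long L1 loci that lie inside antisense genes. Right, CPM of the antisense genes that hold them. Points are the 3 wild-type and 3 knockout non-directional libraries, bars are group means, and axes start at 0. The loci in AC007128.1 and KCNMB2-AS1 and both genes were higher in every knockout library, while the groups of BBOX1-AS1 overlap in the gene counts.

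Genes of RNA surveillance and double-stranded RNA handling, which degrade, edit or sense RNAs of this kind, were taken as a list of 25, of which 24 were in the tables and 23 were tested. In this list 3 were higher and 6 lower in the knockout, against 25.5% and 25.9% of all genes. AGO1 and AGO2, the Argonaute proteins of small RNA silencing, rose by 0.69 (SE 0.04) and 0.40 (SE 0.03), and DICER1 by 0.12 (SE 0.04). ADAR, which edits double-stranded RNA, went from 5467, 4748 and 5001 counts to 3813, 3764 and 3975 (log2 fold change -0.47, SE 0.03, adjusted p = 1.01e-26), and EIF2AK2, the kinase PKR that senses it, changed by -0.48 (SE 0.05, adjusted p = 8.21e-14). EXOSC6, EXOSC8, EXOSC10 and DROSHA were lower by 0.40 or less on the log2 scale. IFIH1, left untested by the filter on low counts, had 8, 16 and 14 counts in the wild type against 2, 0 and 1 in the knockout.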

How the data were processed

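RNA was sequenced in 6 wild-type and 6 SETDB1 knockout HAP1 libraries, 3 per genotype with each kit. The authors deposited raw counts per gene for GENCODE 29 (58735 identifiers, all matched) and, for the non-directional libraries, a signal per long L1 locus. The submitters' processing notes name hg38 with Trim Galore 0.4.4, STAR 2.6.0a, SAMtools 1.9, Picard 2.23.8, HTSeq 0.11.1, bedtools and DESeq2 3.14. The role of each and the strand setting are not given in the sources used here. The deposited L1 signal was whole reads times 1 factor per library (tolerance 0.01 read), and whether its coordinates count from 0 or 1 is not stated.

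Counts were tested with edgeR 4.0.16 (quasi-likelihood, TMM, filterByExpr with minimum count 10 and minimum total 15) in R 4.3.3, 1 fit per kit, adjusted by the Benjamini-Hochberg method over all genes at 0.05. Pairs were tested by a gene by genotype term, and kits by a kit by genotype term. L1 signal was tested with limma 3.58.1 on log2(value + 1). DESeq2 1.42.0 was an alternative. Tables were made with Python 3.11.15, pandas 2.3.3 and scipy 1.17.1, and fits were tested on simulated data.

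The partner was the protein-coding gene on the other strand with the longest overlap, else another overlapping gene, else one starting within 1 kb. Named genes were the 6 that rose and 6 that fell most without overlap of the libraries, 4 pairs changed apart and 4 together, the 5 highest levels, up to 6 called in both kits, the 3 on each side of the minimum, the 6 largest changes on a list of studied antisense RNAs and those with a called L1 locus. Genes described beside these, mainly for the exchange between rows, were chosen after their values were seen. The members and lists were chosen with earlier results of these data known. Of 5 fibroblast markers 1 was tested and 0 were called, with sums of 17.6 to 17.8 CPM in the wild type and 17.8 to 19.8 CPM in the knockout. The sum was carried by COL1A1, the gene tested. THY1 had 7, 4 and 15 counts in the wild type against 1, 2 and 1 in the knockout. COL1A2 (1, 4 and 1) and PDGFRB (1, 1 and 3) had 0 in the knockout, and DCN had 0 throughout. Of the 4 epithelial genes 3 were tested and 2 were higher. Between 8.37 and 8.41% of non-directional reads were ambiguous between genes and were not counted. Intervals and the 3-count limits cover counting error only. Gene positions are from GENCODE 29 and promoter windows from RefSeq (GRCh38.p14). Some items are not reported here.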

Additional observations from a re-analysis of the deposited data

Results flagged for a closer look

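In the rows of 9 antisense genes the knockout effect differed between the kits (edgeR quasi-likelihood test of the kit by genotype term, directional minus non-directional log2 fold change). Which strand a directional row counts was not tested, so a difference can be one between 2 strands and not between 2 readings of 1 RNA. The difference was 1.96 for AC010761.1 (adjusted p = 6.66e-61), from -1.79 without strand to 0.10 with strand. For NNT-AS1 it was -1.56 (adjusted p = 2.94e-17), from 1.31 to -0.31. ZNF790-AS1 had -5.77 (adjusted p = 3.52e-15), with 2 wild-type counts in all behind its non-directional value. RAB11B-AS1 had -2.47 (adjusted p = 1.99e-10) and GAS6-AS1 -3.04 (adjusted p = 1.41e-07), and both rows were higher in the knockout with either kit. AC021092.1 had -1.64 (adjusted p = 3.5e-05) and AC011447.3 -0.93 (adjusted p = 0.0186). PAXIP1-AS2 had 1.03 (adjusted p = 0.019) and LINC00649 0.60 (adjusted p = 0.0325), with directional values of -0.14 and 0.05.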

How the results depend on the processing

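Of the 57 non-directional calls, 33 held in all 12 alternative settings (25 higher, 8 lower), and none changed sign in any. DESeq2's Wald test called 36 antisense genes, all among the 57, and a minimum log2 fold change of 1 left 17. Leaving out 1 library at a time gave 45 to 53. In the directional tables DESeq2's Wald test called 6, a minimum log2 fold change of 1 left 4, and leaving out 1 library gave 9 to 13, the lowest without wild-type replicate 3. Without a filter on low counts 25 non-directional pairs differed between the genes, and leaving out 1 library gave 28 to 35. Of the 4 directional pairs, 1 remained called with limma on log2 ratios plus 0.5 and 1 with plus 2. With no filter 2 directional pairs were called, and leaving out 1 library gave 2 to 5, the lowest without wild-type replicate 2. Of the L1 loci 1 was called without a filter, and 1 to 2 when 1 library was left out, the lowest without knockout replicate 2. The causes were not tested. Leaving out 1 library ended 4 calls and moved the log2 fold change by over 1.5 times: AC093157.1 (0.76, and 0.50 without wild-type replicate 2), AC097461.1 (-0.60, and -0.18 without knockout replicate 3), FLJ37453 (0.70, and 0.34 without knockout replicate 3) and ZFAS1 (0.12 without knockout replicate 2).

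Deviations of same-numbered libraries had mean correlations of -0.0102 and -0.00158 in the non-directional and directional kits, so no pairing by replicate number was seen. The non-directional knockout libraries differed by no more than counting noise, so this check could not exclude that samples were paired. With the replicate number as a block, 56 antisense genes were called without strand and 15 with strand, 38 non-directional pairs and 1 directional pair (limma), 9 kit differences and 2 L1 loci.

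Depth limits the directional tables most, where 3 counts are 4.43 to 5.64 CPM and 101 of the 187 genes were not tested. An absent call there shows nothing about the gene.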
